A study of Mus musculus with 6 samples.

Results

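The neuroligin genes Nlgn1, Nlgn2 and Nlgn3, the neurexin genes Nrxn2 and Nrxn3 and the LRRTM genes Lrrtm1 and Lrrtm2 encode adhesion proteins that join the 2 sides of a synapse. These 7 genes, of 14860 measured by a probe with 1 gene symbol, were taken by exact symbol, and each had 1 probe. Their RNA was measured in the hippocampus of 6 mice, all 63 weeks old, with 1 Affymetrix array per animal. Of these animals, 3 were wildtype and 3 were transgenic animals labelled HGPS, which usually stands for Hutchinson-Gilford progeria syndrome, a disorder of premature ageing in which lamin A is mutated. The sources used here give neither the promoter or cell type that drives the transgene nor the strain or sex. The set was chosen because Nlgn1 had already been seen to be low in the transgenic animals, so the differences of the 7 genes are given as a description of these arrays.

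Neurexins sit in the presynaptic membrane, where they bind several families of partners across the cleft. Neuroligins and LRRTM proteins are postsynaptic partners that compete for neurexins. Neuroligin 1 is found mainly at excitatory synapses and neuroligin 2 at inhibitory ones, neuroligin 3 occurs at both, and LRRTM1 and LRRTM2 act at excitatory synapses. In the hippocampus these proteins help to hold glutamate and GABA receptors at the synapse and take part in synaptic plasticity.

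The wildtype animals were not alike in one respect. The genes of the Y chromosome Eif2s3y, a translation factor subunit, and Kdm5d, a histone demethylase, were high in wildtype replicates 2 and 3 alone. In those animals the log2 level of Eif2s3y was 8.96 and 8.87, whereas it was 4.33 in wildtype replicate 1 and between 4.35 and 4.46 with the transgene. That of Kdm5d was 7.86 and 8.04, whereas the other arrays lay between 4.93 and 5.10. Genotype is therefore mixed with this difference. Values adjusted for the Y-linked signal, or without these 2 arrays, are given below for the synaptic and neighbouring genes named and for their medians. This was done where they moved by over 1.5 times or turned in sign, apart from values that stayed within 0.05 of 0. For the markers of cell types no such values are given. In both fits wildtype replicate 1 is the only wildtype array free of the signal, so neither checks the other. Neuronal RNA was abundant on every array, with log2 levels of 13.55 to 13.68 for Snap25, a protein of synaptic vesicle release, where the median of all probes lay between 7.44 and 7.47.

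Nlgn1 was lower in every transgenic animal than in any wildtype animal. Its RMA level, on a log2 scale, was 9.81, 9.95 and 9.96 in wildtype replicates 1 to 3 and 8.92, 9.00 and 8.97 in transgenic replicates 1 to 3. The gap between the groups was several times wider than the spread within either. The means were 9.91 ± 0.08 and 8.96 ± 0.04 (SD, n = 3 per group), a log2 difference of -0.94 with a 95% interval of -1.10 to -0.79. The transgenic level was thus 52.0% of the wildtype level (interval 46.7% to 57.9%). In a hippocampal extract, fewer cells that hold an RNA and less of it per cell cannot be told apart. Of all 14996 probes tested, 7 had a larger fall than Nlgn1. It passed a false discovery rate of 10% in limma, which is why the set was chosen. Its fall did not reach the 2-fold threshold of the series. Over the alternatives the difference lay between -0.99 and -0.85, but it no longer passed without wildtype replicate 2 or 3 (limma adjusted p = 0.109 and 0.205) or without transgenic replicate 1 or 2 (limma adjusted p = 0.126 and 0.12). Adjusted for the Y-linked signal it was -0.85 (limma adjusted p = 0.308), and without the 2 wildtype arrays that carried the signal it was -0.85 (limma adjusted p = 0.602).

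**Figure D1:**
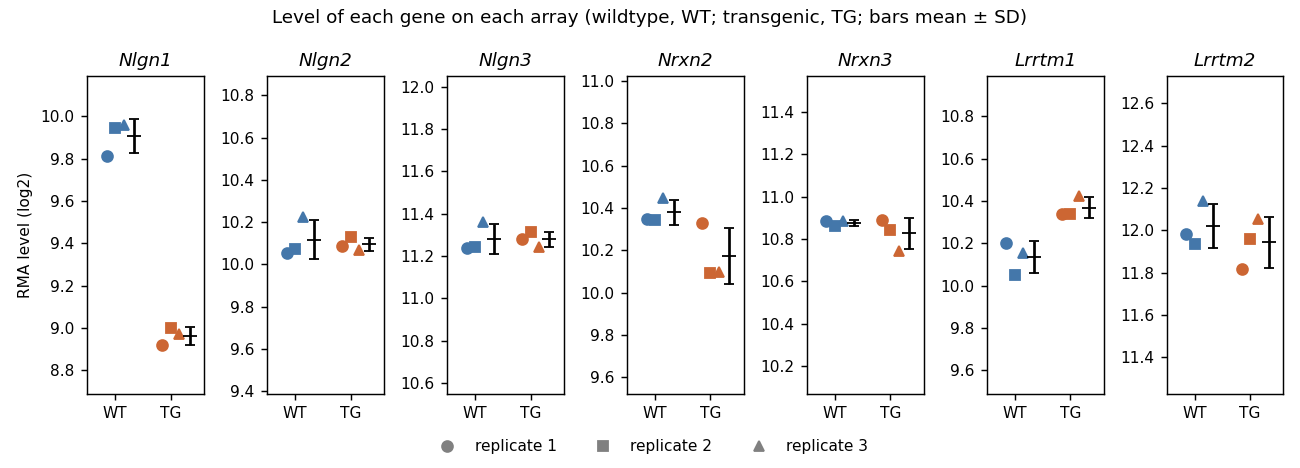
RMA level (log2, vertical axis, each panel spanning the same height on its own offset) of the 7 genes on the 3 wildtype (WT, blue) and 3 transgenic (TG, orange) arrays; symbols mark replicates and bars the mean ± SD. Nlgn1 drops from 9.81 or above to 9.00 or below, while the groups overlap in Nlgn2, Nlgn3, Nrxn3 and Lrrtm2.

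The promoters of the 2 genes that differed most in opposite directions, Nlgn1 and Lrrtm1, and of the paralog Nlgn2 are shown so that the starts behind each transcript can be compared. Each runs from 250 bases before to 50 bases after a transcription start in RefSeq (GRCm38.p6), 5′ to 3′ on the strand of the gene. The promoters used here covered 4 of the 7 genes, Nlgn1, Nlgn2, Nrxn3 and Lrrtm1, with 2 starts for Nlgn1. That count describes the selection used here and not all starts in RefSeq. Capitals mark matches on either strand to the GC box GGGCGG, the cAMP response half-site TGACG, the CCAAT box CCAAT, the TATA box TATAAA or the E-box CACGTG.
Nlgn1 upstream start, chr3:26331860-26332159, minus strand: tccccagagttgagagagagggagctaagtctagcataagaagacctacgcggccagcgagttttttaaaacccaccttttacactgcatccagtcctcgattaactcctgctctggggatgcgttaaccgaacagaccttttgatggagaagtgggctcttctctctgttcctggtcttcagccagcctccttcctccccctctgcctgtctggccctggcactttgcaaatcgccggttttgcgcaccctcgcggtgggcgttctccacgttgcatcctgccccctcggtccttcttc
Nlgn1 downstream start, chr3:26153937-26154236, minus strand: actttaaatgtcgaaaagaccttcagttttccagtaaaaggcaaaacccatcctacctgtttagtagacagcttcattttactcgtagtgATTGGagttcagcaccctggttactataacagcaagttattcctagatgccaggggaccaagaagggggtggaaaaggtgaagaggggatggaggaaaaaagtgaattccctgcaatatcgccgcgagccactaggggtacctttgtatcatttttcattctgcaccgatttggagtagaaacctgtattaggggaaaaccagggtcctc
Nlgn2, chr11:69837735-69838034, minus strand: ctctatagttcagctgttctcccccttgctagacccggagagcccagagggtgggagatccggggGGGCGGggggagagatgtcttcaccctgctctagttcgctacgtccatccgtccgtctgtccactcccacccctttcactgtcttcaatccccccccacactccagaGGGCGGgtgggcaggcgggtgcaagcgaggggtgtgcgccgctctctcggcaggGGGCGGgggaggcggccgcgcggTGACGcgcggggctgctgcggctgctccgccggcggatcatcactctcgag
Lrrtm1, chr6:77242227-77242526, plus strand: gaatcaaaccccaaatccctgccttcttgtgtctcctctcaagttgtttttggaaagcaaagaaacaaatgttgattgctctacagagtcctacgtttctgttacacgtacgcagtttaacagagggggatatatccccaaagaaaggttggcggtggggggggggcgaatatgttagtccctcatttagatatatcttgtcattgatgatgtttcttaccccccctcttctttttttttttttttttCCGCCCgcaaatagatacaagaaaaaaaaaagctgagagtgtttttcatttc

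The Nlgn1 sequences held few of these letters. The upstream start had no match, and the downstream start had 1 CCAAT box, in reverse, at position -160. The Nlgn2 sequence had 3 GC boxes, at -185, -78 and -24, and 1 cAMP response half-site at -1, and the Lrrtm1 sequence had 1 GC box, in reverse, at -2. Among 32851 promoters of the same length, 35.7% held a GC box, 20.8% the half-site, 37.4% a CCAAT box, 13.6% a TATA box and 7.15% the E-box. Nlgn2 was also the richest of the 4 sequences in G and C, at 68.7% with 26 CG dinucleotides, against 55.7% with 14 and 44.7% with 6 at the Nlgn1 starts and 40.7% with 7 at Lrrtm1. The 32851 promoters had medians of 52.7% and 7. These matches describe the letters alone, and the array does not tell which start a transcript came from.

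The neuroligin paralogs overlapped between the groups. Nlgn2, the neuroligin of inhibitory synapses, had log2 levels of 10.05, 10.07 and 10.22 in wildtype and 10.09, 10.13 and 10.07 in transgenic animals. The groups overlapped, with all transgenic values inside the wildtype range. Its log2 difference was -0.02 ± 0.07 (SE), with a 95% interval of -0.18 to 0.14 (limma adjusted p = 0.919). A rise of Nlgn2 above 110% of its wildtype level lies outside that interval. Nlgn3, the neuroligin found at both kinds of synapse, had levels of 11.24, 11.24 and 11.36 in wildtype and 11.28, 11.31 and 11.24 in transgenic animals. These groups overlapped too, at a difference of -0.00 ± 0.06 (SE) with an interval of -0.15 to 0.15 (limma adjusted p = 0.997), whose upper end is 111% of wildtype. Both intervals stop far short of a rise as large as the fall of Nlgn1. Both signs turned positive adjusted for the Y-linked signal, at 0.04 for each gene, without its 2 arrays, and without wildtype replicate 3; that of Nlgn3 also did so with arrays centred on their medians and without transgenic replicate 3.

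**Figure D2:**
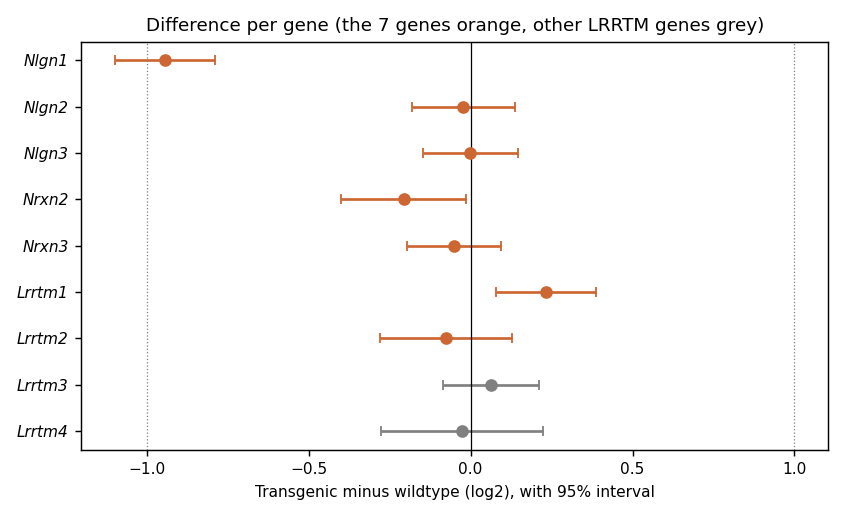
Difference between transgenic and wildtype means (log2, horizontal axis) with its 95% interval for the 7 genes (orange) and for Lrrtm3 and Lrrtm4 (grey); dotted lines mark 2-fold. Nlgn1 lies at -0.94, apart from all other intervals, and the next largest differences are 0.23 for Lrrtm1 and -0.21 for Nrxn2.

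Of the presynaptic neurexins, Nrxn2 lay lower in the transgenic animals without passing the test, and Nrxn3 overlapped between the groups. Nrxn2 had log2 levels of 10.35, 10.34 and 10.45 in wildtype and 10.33, 10.09 and 10.10 in transgenic animals. The groups were separated only narrowly, since transgenic replicate 1 lay just under the wildtype range. Its difference of -0.21 ± 0.08 (SE), or 86.7% of wildtype, had an interval of -0.40 to -0.01 and did not pass (limma adjusted p = 0.454). Leaving out transgenic replicate 1 gave -0.28, and the other alternatives did not go below that. Nrxn3 had levels of 10.88, 10.86 and 10.88 in wildtype, the tightest wildtype group of the 7 genes, and 10.89, 10.84 and 10.74 in transgenic animals. Its difference was -0.05 ± 0.06 (SE) with an interval of -0.20 to 0.09 (limma adjusted p = 0.771).

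Lrrtm1 was the member that lay higher in the transgenic animals. Its log2 levels were 10.20, 10.05 and 10.16 in wildtype and 10.34, 10.34 and 10.43 in transgenic animals, so that the groups did not overlap. The difference was 0.23 ± 0.07 (SE), or 117% of wildtype, with an interval of 0.08 to 0.39, and it did not pass over all probes (limma adjusted p = 0.431). Adjusted for the Y-linked signal it was 0.17, and 0.17 too without the 2 arrays. Lrrtm2, the other member of this family, had levels of 11.98, 11.94 and 12.14 in wildtype and 11.82, 11.96 and 12.06 in transgenic animals. These overlapped, at a difference of -0.08 ± 0.09 (SE) with an interval of -0.28 to 0.13 (limma adjusted p = 0.754). Leaving out transgenic replicate 1 brought Lrrtm2 to -0.01, and adjusting for the Y-linked signal to -0.04.

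In the LRRTM paralogs outside the set the groups overlapped too. Lrrtm3 ranged from 9.63 to 9.77 in wildtype and from 9.73 to 9.82 in transgenic animals, a difference of 0.06 ± 0.06 (SE). Lrrtm4 ranged from 9.11 to 9.22 and from 9.02 to 9.38, a difference of -0.03 ± 0.11 (SE), with transgenic replicate 3 above the wildtype range and the other transgenic arrays below it. Neither passed (limma adjusted p = 0.723 and 0.943), and Lrrtm3 was at 0.13 adjusted for the Y-linked signal. In the gene order of GRCm38.p6, Lrrtm1, Lrrtm2 and Lrrtm3 lie inside the genes Ctnna2, Ctnna1 and Ctnna3, which encode alpha-catenins, the link from cadherins to actin. The host genes differed by -0.04 ± 0.06, 0.17 ± 0.07 and 0.03 ± 0.06 (log2, SE). Lrrtm1 and its host, and Lrrtm2 and its host, thus had differences of opposite sign, and none of the 3 host genes passed (lowest limma adjusted p = 0.444). Ctnna1 was at 0.08 and Ctnna2 at -0.09 adjusted for the Y-linked signal.

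Of the 7 genes, 1 passed a false discovery rate of 10%, against 0.0467% of all probes. An unadjusted limma p under 0.05 was reached by 3, Nlgn1, Nrxn2 and Lrrtm1, against 10.6% of all probes (4.8% lower and 5.81% higher). The same 3 had groups that did not overlap, against 17.7% of all probes (8.55% with all transgenic arrays below and 9.14% with all above). Nothing is read from these shares, since the set was chosen on this contrast. The ratio of Nlgn1 to each other member within an array was lower in the transgenic group, a description that carries no test. The log2 ratio changed by -0.92 ± 0.05 (SE) against Nlgn2, by -0.94 ± 0.05 against Nlgn3 and by -0.74 ± 0.11 against Nrxn2. Its change was -0.89 ± 0.08 against Nrxn3, -0.87 ± 0.08 against Lrrtm2 and -1.17 ± 0.09 against Lrrtm1. In each of the 6 ratios all 3 transgenic arrays lay below all 3 wildtype arrays.

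Of the wider synaptic genes besides the 7, none passed the rate of 10%. Only 0.0467% of all probes did so, and the absence of calls therefore says little about these genes. Of 122 genes on 5 lists, 99 were measured, and 92 of these are not among the 7. None of the 92 passed in limma (lowest adjusted p = 0.432), while 5 had an unadjusted p under 0.05, 2 higher and 3 lower, or 5.43% against 10.6% of all probes. Their log2 differences ran from -0.25 to 0.55 with a median of -0.03, where the median of all probes was -0.00, and none fell as far as Nlgn1. Of the 92 genes 37 lay above 0 and 55 below, where 7488 of all 14996 probes lay above and 7508 below.

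Among 15 further presynaptic partners, 8 lay above 0 and 7 below, with a median of 0.01 that turned to -0.02 without transgenic replicate 3. Nxph2, a secreted neurexin ligand of the neurexophilin family, had log2 levels of 5.53 to 5.66 in wildtype and 5.30 to 5.55 in transgenic animals, a difference of -0.20 ± 0.08 (SE). Nxph1 of the same family differed by 0.10 ± 0.06 and the heparan sulfate proteoglycan gene Sdc2 by 0.13 ± 0.08. Their groups overlapped. Nxph2 was at -0.13 and Sdc2 at 0.01 adjusted for the Y-linked signal, and without its 2 arrays at -0.13 and 0.00. The list of postsynaptic neurexin ligands also holds secreted ones such as Cbln1. Of its 12 further genes 8 lay above 0, with a median of 0.06, and none had an unadjusted p under 0.05. Without transgenic replicate 3 these counts turned, to 5 above 0 and a median of -0.01, while the median was 0.11 both adjusted for the Y-linked signal and without its 2 arrays. Dag1, the dystroglycan gene, had 9.86 to 9.93 in wildtype and 10.00 to 10.05 in transgenic animals, a difference of 0.12 ± 0.06 (SE). The calsyntenin gene Clstn2 differed by -0.15 ± 0.09. Cbln1, a secreted bridge between neurexins and delta glutamate receptors, differed by 0.34 ± 0.19, with wildtype replicate 1 lowest at 6.43 and the other arrays between 6.90 and 7.30. Cbln1 was at 0.73 adjusted for the Y-linked signal and at 0.74 without its 2 arrays.

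Of the 17 measured postsynaptic scaffold genes 11 lay below 0, with a median of -0.03 that ran, with each array left out, from -0.07 without wildtype replicate 1 to -0.01 without wildtype replicate 3. Homer3, which ties metabotropic glutamate receptors to the scaffold, had log2 levels of 8.71 to 8.90 in wildtype and 8.53 to 8.61 in transgenic animals, a difference of -0.21 ± 0.07 (SE). Dlg2 of the PSD-95 family differed by -0.16 ± 0.07 and Shank3, a scaffold of the postsynaptic density, by -0.25 ± 0.14. Wildtype and transgenic arrays overlapped in Shank3 but not in the other 2 genes. Dlg2 was at -0.06 both adjusted for the Y-linked signal and without its 2 arrays. Dlg4, the gene of PSD-95 to which neuroligin 1 binds, differed by -0.01 ± 0.05, and Gphn, the gephyrin gene of inhibitory synapses, by -0.02 ± 0.06; both were named after their values were seen. Of 42 other synaptic adhesion genes 32 lay below 0, against 7508 of all 14996 probes, with a median of -0.05. Ncam2, a neural cell adhesion molecule, differed by -0.17 ± 0.07, Lrrc4c, the netrin-G ligand gene, by -0.13 ± 0.06 and the latrophilin ligand gene Flrt2 by 0.20 ± 0.09. Flrt2 was at 0.08 and Lrrc4c at -0.08 both adjusted for the Y-linked signal and without its 2 arrays. Within this list 10 genes lay above 0, and 18 did adjusted for the Y-linked signal, which brought the median to -0.02; with each array left out the median ran from -0.08 without wildtype replicate 1 to -0.04 without wildtype replicate 3, where 17 genes lay above 0. None of these genes passed (lowest limma adjusted p in the list of other adhesion genes = 0.451).

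Among 6 genes of proteins that modulate neuroligins, 5 lay above 0, with a median of 0.10. Thbs1, the secreted thrombospondin that binds neuroligin 1, had log2 levels of 7.87, 7.25 and 7.25 in wildtype and 8.19, 7.89 and 7.95 in transgenic animals. Wildtype replicates 2 and 3 stood apart, while wildtype replicate 1 was close to transgenic replicate 2. The difference was 0.55 ± 0.18 (SE, limma adjusted p = 0.432), against 0.15 adjusted for the Y-linked signal and 0.14 without its 2 arrays. Without wildtype replicate 1 it was 0.76 and passed (limma adjusted p = 0.0646). In that fit every wildtype array carried the Y-linked signal and no transgenic array did, so genotype cannot be told apart from the signal. All 6 measured markers of the meninges were also higher in the transgenic group, and the mean of these markers, centred over the 6 arrays, stood at 0.23, -0.63 and -0.66 in wildtype replicates 1, 2 and 3 and between 0.29 and 0.42 with the transgene; their part in the Thbs1 value was not tested. The contactin gene Cntn4 differed by 0.15 ± 0.06, and Mdga2, which blocks the binding of neuroligins to neurexins, by -0.10 ± 0.06, which became -0.04 adjusted for the Y-linked signal.

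**Figure D3:**
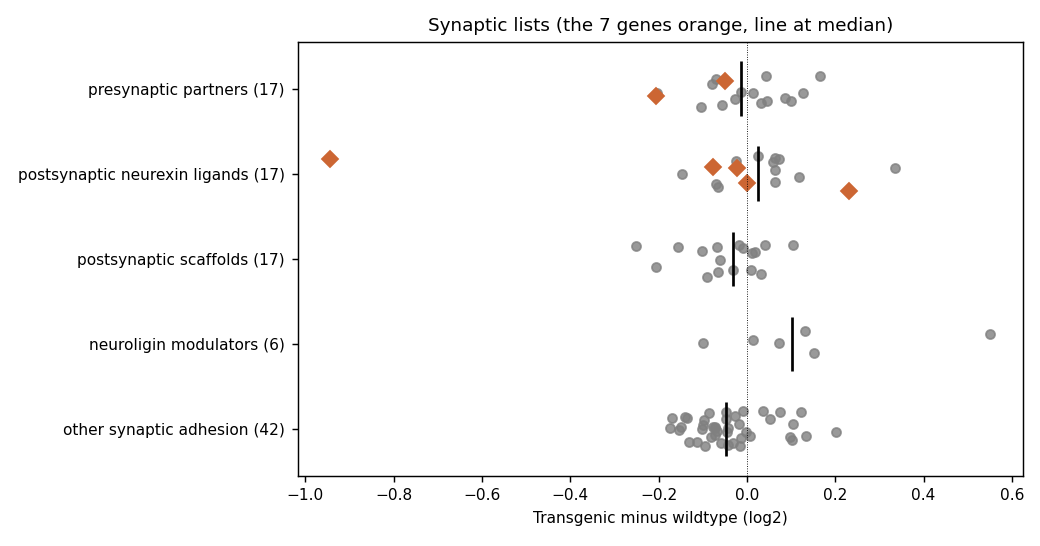
Difference between transgenic and wildtype means (log2, horizontal axis) for 5 lists of synaptic genes, with the number measured in brackets; orange diamonds are the 7 genes, grey points the others and black lines the list medians. Nlgn1 lies alone at -0.94, and the point farthest to the right is Thbs1 at 0.55.

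General neuronal markers differed little between the groups. Of 6 neuron markers 4 lay below 0, with a median log2 difference of -0.05 and a mean level relative to the arrays of -0.03 to 0.05 in wildtype and -0.07 to 0.02 in transgenic animals. The 4 markers of excitatory neurons had a median of -0.02, with a mean relative level of -0.03 to 0.04 in wildtype and -0.03 to 0.02 in transgenic animals. The 6 markers of inhibitory neurons had a median of 0.04, with -0.04 to 0.03 and -0.02 to 0.02. In all 3 lists the groups overlapped and no gene had an unadjusted p under 0.05. None of the markers of other cells passed the rate of 10%, against 0.0467% of all probes. In the meninges list 5 of 6, in the endothelial list 3 of 5 and in the astrocyte list 1 of 6 had an unadjusted p under 0.05. All of these were higher, where 5.81% of all probes were higher at that p and 10.6% differed in either direction. All 6 astrocyte markers were above 0, with a median of 0.14 and a mean relative level of -0.16 to 0.03 in wildtype and 0.02 to 0.14 in transgenic animals. All 5 endothelial markers were above 0, with a median of 0.27 and levels of -0.30 to -0.01 and 0.08 to 0.21. All 5 choroid plexus markers were above 0, with a median of 0.67. Their levels were 0.49, -0.43 and -0.92 in wildtype replicates 1, 2 and 3 and 0.54, -0.32 and 0.65 in transgenic replicates 1, 2 and 3. The 5 oligodendrocyte markers had a median of 0.08 and levels of -0.16 to 0.02 and -0.04 to 0.21, and the 5 microglia markers a median of -0.06 and levels of -0.01 to 0.06 and -0.07 to 0.00. Wildtype replicate 1, which lacked the Y-linked signal, had the highest wildtype level in the lists of astrocytes, oligodendrocytes, microglia, endothelium, meninges and choroid plexus. The part of these cells in the values of the 7 genes was not tested.

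The genes around Nlgn1 on chromosome 3 were low as well, which was known from earlier results of these data. All 10 measured neighbours, 5 on each side in the gene order of GRCm38.p6, lay below 0. Their median log2 difference was -0.32, with a range of -0.78 to -0.06. Of these neighbours 2 passed the rate of 10%, against 0.0467% of all probes, and 5 had an unadjusted p under 0.05, against 10.6%. The next gene on one side, the corepressor subunit gene Tbl1xr1, differed by -0.69 ± 0.06 (SE), and that on the other side, the testis gene Spata16, by -0.26 ± 0.12. Adjusted for the Y-linked signal Tbl1xr1 was at -0.70 and Spata16 at -0.12, and the median of the 10 neighbours was -0.31. The difference of Nlgn1 was larger than that of each of these neighbours. Without the dimmest 33.3% of probes, which dropped the dimmer neighbours, the median was -0.70.

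The neighbours of the other 6 genes lay closer to 0. Their median log2 differences were -0.03 for Nlgn2, 0.01 for Nlgn3, 0.12 for Nrxn2, -0.03 for Nrxn3, -0.01 for Lrrtm1 and 0.04 for Lrrtm2, with 4 to 6 of 10 below 0 in each. None of these 60 neighbours passed the rate of 10%, against 0.0467% of all probes, and 8 had an unadjusted p under 0.05, against 10.6%. The genes next to Nrxn2, which itself had -0.21, were Rasgrp2, an activator of Rap proteins, at 0.17 ± 0.06 and the urate transporter gene Slc22a12 at -0.15 ± 0.08. The genes flanking Nlgn2 were Spem2 at -0.09 ± 0.14 and Acap1 at -0.06 ± 0.08, and those flanking Nlgn3 were the mediator subunit gene Med12 at 0.01 ± 0.07 and the connexin gene Gjb1 at 0.24 ± 0.14. Next to Nrxn3 lay Adck1 at 0.04 ± 0.07 and the thyroid hormone deiodinase gene Dio2 at -0.03 ± 0.07. Besides their host genes, Lrrtm1 was flanked by Reg2 at -0.12 ± 0.11 and Lrrtm2 by the chaperone cofactor gene Sil1 at 0.01 ± 0.06. Adjusted for the Y-linked signal Slc22a12 was at -0.01, Acap1 at -0.02, Spem2 at 0.05, Med12 at -0.06, Gjb1 at 0.09, Adck1 at 0.06, Dio2 at -0.04, Reg2 at 0.01 and Sil1 at -0.06, and the medians of these 6 neighbourhoods lay between -0.03 and 0.10.

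**Figure D4:**
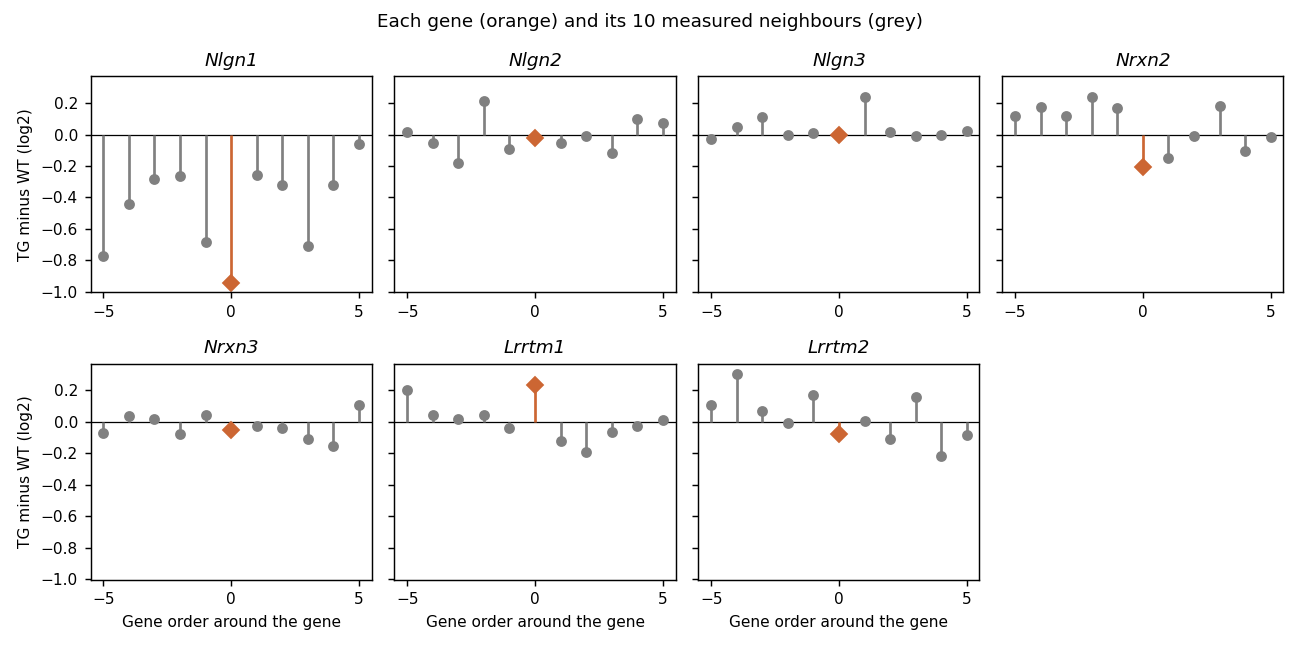
Difference between transgenic and wildtype means (log2, vertical axis) of each of the 7 genes (orange diamond) and its 5 nearest measured genes on either side (grey), in gene order on the horizontal axis. All 10 neighbours of Nlgn1 lie below 0, with a median of -0.32, while the neighbours of the other genes scatter around medians of -0.03 to 0.12.

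Among all 14860 genes, the 5 whose levels followed Nlgn1 most closely over the 6 arrays were Slfnl1, the kinase gene Riok3, the glycogenin gene Gyg, the phosphoglycerate mutase gene Pgam2 and the phosphodiesterase gene Pde7a. Their Pearson r with Nlgn1 was 0.994, 0.994, 0.994, 0.993 and 0.992. Gyg and Pde7a lie on chromosome 3 like Nlgn1, with differences of -0.78 and -0.74 on the log2 scale, and the other 3 lie on other chromosomes, with differences of -0.34 to -0.17. Over 6 arrays in 2 groups such a correlation mostly restates the group difference, and within groups the 5 values ran from 0.43 to 0.91. None of the other members was near the top, with r from 0.75 for Nrxn2 down to -0.92 for Lrrtm1.

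**Figure D5:**
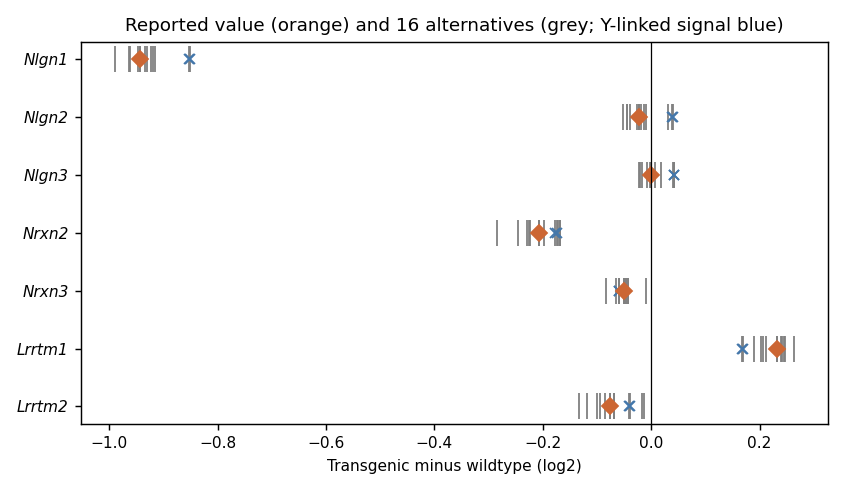
Difference between transgenic and wildtype means (log2, horizontal axis) of the 7 genes as reported (orange diamonds) and under 16 alternatives (grey ticks), with the 2 that use the Y-linked signal as blue crosses. Nlgn1 stays between -0.99 and -0.85, Lrrtm1 between 0.17 and 0.26 and Nrxn2 between -0.28 and -0.17, while Nlgn2 and Nlgn3 lie on both sides of 0.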

How the data were processed

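Hippocampal RNA of 3 wildtype and 3 transgenic mice was hybridised to 1 array each, per the labels' protocols. The authors deposited RMA values on a log2 scale, 1 per probe; RMA and the build mm8 come from the submitters' processing notes. RMA corrects background, normalizes between arrays and summarises probes, and it generally compresses differences of dim probes. Version and filters: not given in the sources used here.

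GEO's platform annotation gave 1 gene symbol for 14996 of 23332 probes and several for 1019, and 7317 are unnamed here. The 14996 probes were tested in R 4.3.3 with the lmFit and eBayes functions of limma 3.58.1 (no covariate, two-sided, Benjamini-Hochberg over all of them). A RefSeq table of GRCm38.p6 held 14941 of the probes' genes, changed 0 names and gave the gene order. SE values are the moderated ones of limma, except for ratios, where they are ordinary. The number of arrays limits the precision, and an exact permutation test of 3 against 3 cannot go below 0.1.

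The 7 genes and the lists were chosen with earlier results of these data known. Named genes were the 7, the 3 others with the smallest p per synaptic list, the 5 most like Nlgn1, the genes next to each of the 7, Lrrtm3, Lrrtm4, Eif2s3y and Kdm5d. A gene with several probes was represented by the probe with the highest mean. The fit was tested on simulated data. The alternatives tried were array weights, trend and robust estimation in eBayes, the replicate number as a block, median centring, another round of quantile normalization, dropping the dimmest 33.3% of probes, adjusting over all probes, averaging the probes of a gene, the mean of Eif2s3y and Kdm5d as a covariate (the Y-linked signal), and leaving out arrays.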

Additional observations from a re-analysis of the deposited data

How the results depend on the processing

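The 6 members other than Nlgn1 did not pass under any of the 16 alternatives, and Lrrtm1, Lrrtm2, Nrxn2 and Nrxn3 kept their direction in all of them. Nlgn1 kept its direction in all 16 and lost its call in 8, and the cause was not tested. Its value was -0.94 with the replicate number as a block (adjusted p = 0.157), -0.94 when all 23332 probes were adjusted together (adjusted p = 0.111), where more probes are tested, -0.85 adjusted for the Y-linked signal and -0.85 without its 2 arrays; leaving out each array gave -0.99 to -0.92. Nlgn2 turned to 0.039 adjusted for the Y-linked signal, 0.040 without those arrays and 0.031 without wildtype replicate 3, in a range of -0.053 to 0.031 with each array left out. Nlgn3 turned to 0.0073 with arrays centred on their medians, 0.041 adjusted for the Y-linked signal, 0.042 without those arrays, 0.040 without wildtype replicate 3 and 0.017 without transgenic replicate 3, in a range of -0.022 to 0.040.

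The count of 7 probes past the rate of 10% became 0 with the replicate block, with all probes, adjusted for the Y-linked signal, without the 2 arrays and with the added 2-fold threshold of the series, 12 with trend and robust estimation and 12 with array weights, and ran from 0 to 103 with each array left out, the highest without wildtype replicate 1. The count of 1 neurexin ligand, which is Nlgn1, became 0 wherever its call was lost (0 with the block, with all probes, adjusted for the Y-linked signal and without the 2 arrays, 0 to 1 with each array left out). The count of 0 neuroligin modulators ran from 0 to 1, the 1 being Thbs1 without wildtype replicate 1. In the fit without wildtype replicate 1, which gave 103 probes and Thbs1, genotype could not be told apart from the Y-linked signal. The median r of the 5 genes most like Nlgn1 was 0.994 and became 0.709 within groups. The neighbours of Nlgn1 were put through the alternatives after seeing the data. Same-numbered arrays did not deviate together in every pair (r of 0.23, 0.15 and 0.02 for replicates 1, 2 and 3), and wildtype replicate 3 correlated best with transgenic replicate 2, so the numbers are not taken as pairs. Differences of about 0.1 or less on the log2 scale lie within the error of 3 arrays per group, and larger ones can too. For Shank3, at -0.25, the interval ran from -0.58 to 0.08, and for Flrt2, at 0.20, from -0.01 to 0.41. For Nrxn2, at -0.21, it ran from -0.40 to -0.01, and for Lrrtm1, at 0.23, from 0.08 to 0.39.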

Other observations

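Wildtype replicate 3 was the highest of the 3 wildtype arrays in 5 of the 7 genes, Nlgn1, Nlgn2, Nlgn3, Nrxn2 and Lrrtm2, and wildtype replicate 1 in the other 2, Nrxn3 and Lrrtm1. Among the 92 further synaptic genes, wildtype replicate 3 was highest in 49, or 53.3%, against 33.4% of all 14860 genes, and wildtype replicate 1 in 16, or 17.4%, against 29.9%. The 42 other synaptic adhesion genes had a mean level relative to the 6 arrays of 0.07 in wildtype replicate 3, of -0.02 and 0.00 in wildtype replicates 1 and 2 and of -0.04 to -0.00 in the transgenic animals. The 17 scaffold genes had 0.07 in wildtype replicate 3, 0.00 in each of the other wildtype animals and -0.04 to -0.02 in the transgenic animals. Without wildtype replicate 3 the genes below 0 went from 32 to 25 of 42 on the adhesion list and from 11 to 9 of 17 on the scaffold list. Leaving out each other array gave 27 to 33 of 42, the lowest without transgenic replicate 3 and then 28 without transgenic replicate 1, and 11 to 13 of 17. No test was run on this pattern, which was noticed in the values.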
